A study of Mus musculus with 8 samples.

Results

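The clustered histone genes are the small genes that encode the core histones H2A, H2B, H3 and H4 and the linker histone H1, most of them packed side by side on a few chromosomes. They were chosen by gene symbol: every gene whose symbol begins with Hist1h to Hist4h, H2ac, H2bc, H3c, H4c or H1f, which gave 72 of the 55487 genes in each of the 2 deposited tables, with the same 72 in both. No measured value entered that choice, but the group was proposed with earlier results of these data known, so its fold changes are given as a description. Of the 72, 11 were H1, 20 H2A, 17 H2B, 12 H3 and 12 H4 genes, 68 were annotated as protein coding and 4 as pseudogenes. On mouse build GRCm38 (mm10), 56 lay in the cluster on chromosome 13 between 21715763 and 23934851, 10 in the cluster on chromosome 3 between 96219865 and 96270132, and 6 elsewhere. H1f0 on chromosome 15 was among these 6.

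The cells were splenic regulatory T cells (Tregs), CD4 T cells that carry the factor Foxp3 and hold immune responses in check, from C57BL/6 mice. Control Tregs were compared with Tregs labelled SRC-3KO, for loss of the nuclear receptor coactivator encoded by Ncoa3, in mice without a tumor and in tumor-bearing mice, and the study's stated interest was how the 2 genotypes differ in their transcripts. Each of the 4 groups had 2 libraries. Cells were sorted for GFP and libraries were made with SMART-Seq v4, a kit that primes cDNA on poly(A) tails. Without a tumor, control 1 had a wild-type title and no GFP in its source label, and control 2 was named as Foxp3-Cre. Both SRC-3KO titles there carried the unexplained word Tam1, and what it stands for and genotype cannot be told apart. With a tumor, both controls were named as Foxp3-Cre with GFP and both SRC-3KO libraries carried GFP in their names. The labels leave unstated the tumor type, the age of the mice and how SRC-3 was deleted, and nothing says that replicates came from separate animals, so p-values measure only the spread between these samples.

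Most clustered histone genes are transcribed in bulk during S phase, when new DNA must be packaged. Their mRNAs normally end in a conserved stem-loop bound by the protein Slbp and carry no poly(A) tail, while a few histone genes, such as H1f0, the linker histone of slowly dividing and differentiated cells, make ordinary polyadenylated mRNA throughout the cell cycle. An H2A gene and an H2B gene often stand head to head and share the short stretch of DNA between them as a promoter.

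The stem-loop is shown because it is what sets these transcripts apart from most mRNAs and because the library chemistry reads poly(A) tails. The pattern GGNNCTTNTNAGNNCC, searched on the sense strand of the GENCODE vM21 transcripts, was found in 43 of the 72 members and in 0.310% of 55450 genes by their longest transcript. It was present in 11 of 12 H4, 9 of 12 H3, 10 of 20 H2A, 9 of 17 H2B and 4 of 11 H1 genes, and H1f0 was without it. The loop is in capitals and the stem in lower case. The form of Hist1h2ap, Hist1h2ao, H2ac11, H2ac8, H2bc11 and H1f4 was shared by 24 members, none of them an H4 gene.
H2ac11: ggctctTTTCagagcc
H4c4: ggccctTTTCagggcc
H3c3: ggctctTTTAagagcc
H4c9: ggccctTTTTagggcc
The H4c4 form was found in 6 members, all of them H4 genes, the H3c3 form in 6 and the H4c9 form in 2. In 23 members the match ended within 100 bases of the transcript's end, and in 20 the annotated transcript ran further, as in H1f4, where 1153 bases followed it. The absence of a match in the other members says only that these letters are not in the annotated transcript.

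The promoters of an H2A gene, an H4 gene and H1f0 are shown because these members behaved differently in the libraries described further on. Each is the 250 bases before the RefSeq start on GRCm38.p6, 5′ to 3′ on the strand of the gene, with capitals marking CCAAT and its reverse complement ATTGG, and TATAA on the strand of the gene.
H2ac11, chr13:22042950-22043199, minus strand: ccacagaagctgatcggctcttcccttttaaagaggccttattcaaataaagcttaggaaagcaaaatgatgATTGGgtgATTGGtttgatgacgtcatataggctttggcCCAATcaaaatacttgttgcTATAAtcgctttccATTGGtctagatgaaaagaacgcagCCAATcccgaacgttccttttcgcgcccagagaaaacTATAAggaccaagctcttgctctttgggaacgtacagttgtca
H4c4, chr13:23581318-23581567, plus strand: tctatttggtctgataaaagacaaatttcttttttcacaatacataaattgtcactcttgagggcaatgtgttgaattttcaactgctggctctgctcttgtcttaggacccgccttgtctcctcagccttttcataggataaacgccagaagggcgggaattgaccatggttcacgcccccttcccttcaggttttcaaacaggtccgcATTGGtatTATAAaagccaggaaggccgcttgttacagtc
H1f0, chr15:79027962-79028211, plus strand: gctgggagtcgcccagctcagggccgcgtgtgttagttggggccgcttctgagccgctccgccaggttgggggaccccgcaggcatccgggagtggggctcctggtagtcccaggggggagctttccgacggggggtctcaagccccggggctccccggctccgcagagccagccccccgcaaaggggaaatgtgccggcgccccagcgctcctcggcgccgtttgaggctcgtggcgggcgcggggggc
The H2ac11 window, which lies between H2ac11 and its partner H2bc11, held 5 CCAAT matches on either strand and 2 TATAA matches. The H4c4 window held 1 of each, and the H1f0 window held neither. That H1f0 window ends at 79028211, upstream of the GENCODE start of H1f0 at 79028450. It therefore does not cover the bases next to that start, where matches were not searched in print. RefSeq windows of 250 bases before to 50 after the start were found for 63 members, 64 windows in all. CCAAT, on either strand, was in 82.8% of these windows and in 37.4% of all 32851 windows, in every H2A, H2B and H3 window and in 3 of 11 H4 windows. TATAA, here also counted on either strand, was in 73.4% of the members' windows against 24.9% of all. The octamer ATTTGCAT is the sequence that the factor Oct-1 (Pou2f1) binds at H2B genes. On either strand, it was in 7 of 16 H2B and 6 of 17 H2A windows. It was in none of the H1, H3 or H4 windows and in 1.74% of all windows.

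The depth and the make-up of the libraries bear on every comparison. The no-tumor table holds read counts, 24159217 to 31075452 in all per library, given here as CPM, that is, scaled to the library's total. The tumor table holds FPKM values, whose depth is unknown, so the states were tested separately and only set side by side. Treg markers summed to 3553 to 5948 CPM without a tumor and 1782 to 2881 FPKM with one, with all 9 above 0 in every library. Without a tumor, control 1 stood apart in both directions among the Treg markers. Foxp3 was at 230 CPM there against 9.33 to 22.3 in the other libraries, and Tigit, Cd3e and Cd4 were also highest there. Tnfrsf18 was lowest there, at 179 CPM against 1921 to 2471, as were Ctla4, Ikzf2 and Il2ra. Ikzf4 lay within the range of the other libraries. With a tumor, control 2 held neutrophil markers at a summed 4038 FPKM, against 0.0611 to 5.07 elsewhere, and all 7 of them were above 0. Monocyte and macrophage markers were also high there, at 1414 FPKM against 7.76 to 10.4, as were erythroid markers, at 55.6 FPKM against 0.0700 to 2.51. Ncoa3 transcripts were present in all libraries, at 131 and 58.7 CPM in the controls and 39.8 and 24.5 CPM in SRC-3KO without a tumor, and at 37.7 and 45.4 FPKM in the controls and 47.5 and 27.7 FPKM in SRC-3KO with one, where the groups overlapped. The deleted exons are unstated, so this level checks nothing about the labels.

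Detection was counted before genotypes were compared. Without a tumor, 62 of the 72 members had at least 1 read in some library, 34 had reads in all 4, and 10 had none in any. Control 1 held 59 members above 0, control 2 held 42, and the SRC-3KO libraries held 49 and 55. At or above 1 CPM the libraries held 39, 33, 31 and 30 members in that order, and 19 members reached it in all 4. With a tumor, 70 members were above 0 in some library and 59 in all 4. There the controls held 62 and 66 members above 0 and the SRC-3KO libraries 63 and 67, whereas at or above 1 FPKM the controls held 39 and 28 and the SRC-3KO libraries 23 and 24. The H1 pseudogene H1f11-ps and the testis linker histone H1f7 were at 0 in all 8 libraries, and 8 others were at 0 only in the no-tumor table, among them H2ac18 and H2ac19.

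The filters on low values left 43 members to be tested without a tumor and 29 with one. Of these, 25 were tested in both states, 18 only without a tumor, 4 only with one, and 25 members in neither. H2ac7 and Hist1h2an passed the tumor filter through the 2 controls alone and H3c11 through the 2 SRC-3KO libraries alone. H2bc15 passed the no-tumor filter through the 2 controls alone. These members had to differ, and counts over the tested members support nothing. The 43 members that were not tested with a tumor had values of at most 5.30 FPKM in any library, with a median highest value of 0.542 FPKM. Many members are close copies of each other: 33 shared over 50% of their 50-base windows with another member. How reads that fit several genes were counted, and whether strand was used, is unstated in the sources used here, and all 20 H2A genes overlap an annotated gene on the other strand.

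In tumor-bearing mice the H2A genes had the highest summed FPKM of any class and the widest gap between genotypes. The kit primes on poly(A) tails, so histone mRNAs without a tail may be missed in these sums, which was not tested. The 20 H2A genes summed to 311 and 171 FPKM in the controls and to 56.7 and 49.9 FPKM in SRC-3KO. Both controls were above both SRC-3KO libraries, by 4.53 times on the means. Much of the sum came from 2 near-identical genes, Hist1h2ap and Hist1h2ao. Without them the other 18 summed to 87.9 and 64.8 FPKM in the controls and 19.2 and 20.6 FPKM in SRC-3KO. All 72 members together summed to 405 and 251 FPKM in the controls and 127 and 121 FPKM in SRC-3KO, so H2A made up 76.8% and 68.2% of the members' FPKM in the controls and 44.7% and 41.1% in SRC-3KO. In bulk samples fewer cells that transcribe these genes and less RNA per cell cannot be told apart.

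**Figure D1:**
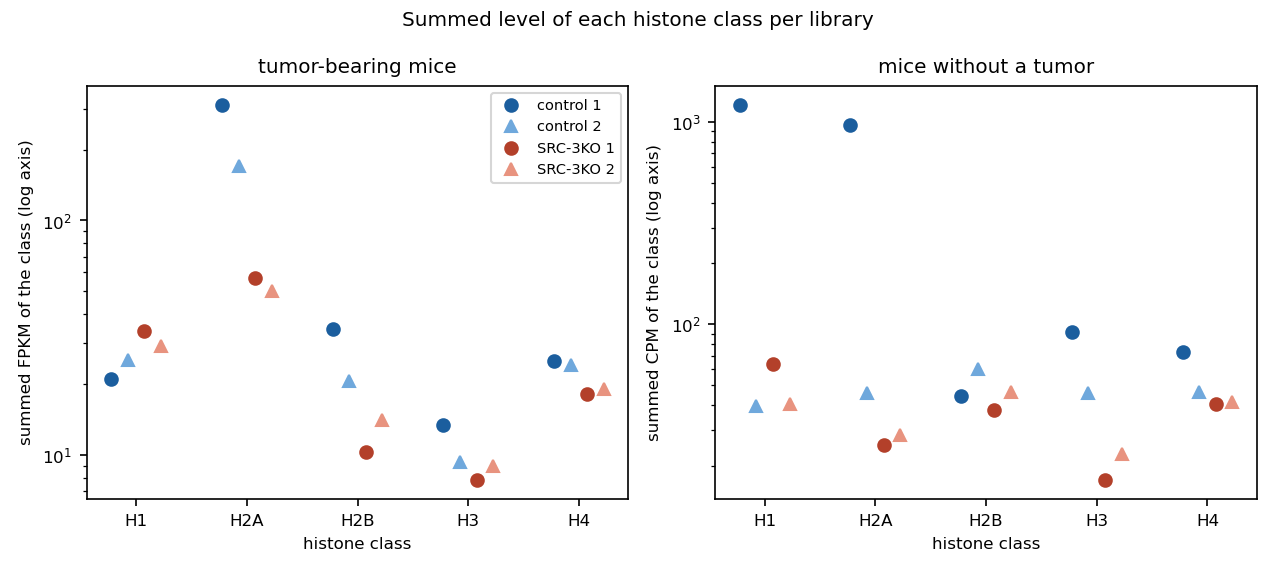
Summed level of each histone class in each library, FPKM in tumor-bearing mice (left) and CPM in mice without a tumor (right), on log axes; each point is 1 library. With a tumor, the H2A sums of the controls (311 and 171 FPKM) sit above those of SRC-3KO (56.7 and 49.9 FPKM), and without a tumor control 1 alone is high for H1 and H2A (1217 and 966 CPM).

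Hist1h2ap and Hist1h2ao, near-identical H2A genes, had the highest means over the 4 tumor libraries, although in both SRC-3KO libraries H1f0 was higher. Hist1h2ap (chromosome 13, 21833026 to 21833507, minus strand) was at 117 and 55.4 FPKM in the controls and 19.6 and 15.3 FPKM in SRC-3KO. Hist1h2ao (chromosome 13, 21810465 to 21810944, plus strand) was at 106 and 51.0 FPKM in the controls and 17.9 and 13.9 FPKM in SRC-3KO. For both genes control 1 was the highest library and control 2 the next, and the groups did not overlap. The log2 fold change, SRC-3KO minus control on the log2(FPKM + 1) scale, was -2.15 (SE 0.38) for Hist1h2ap and -2.16 (SE 0.38) for Hist1h2ao, and limma gave Benjamini-Hochberg adjusted p-values of 0.141 and 0.140. Over 90% of the 50-base windows of each recur in other members, 93.1% and 93.5%, so their levels are uncertain as levels of single genes.

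H2ac11, the H2A gene whose promoter is printed above (chromosome 13, 22042460 to 22042944, minus strand), was at 38.4 and 22.6 FPKM in the controls and 7.15 and 6.09 FPKM in SRC-3KO. The controls were both higher and the groups did not overlap. Its log2 fold change was -2.004 (SE 0.30), with a limma adjusted p of 0.121, the smallest of any member. H2ac12, the neighbouring H2A gene, was at 12.1 and 6.45 FPKM in the controls and 2.17 and 1.35 FPKM in SRC-3KO, a log2 fold change of -1.86. H2ac8, an H2A gene further along the cluster, was at 8.35 and 5.90 FPKM in the controls and 1.89 and 1.65 FPKM in SRC-3KO, a log2 fold change of -1.54. Neither H2ac12 nor H2ac8 overlapped between groups, and their limma adjusted p-values were 0.147 and 0.135. Other H2A genes were less abundant: Hist1h2an was at 2.93 and 1.29 FPKM against 0.326 and 0.358, and H2ac13 at 5.88 and 3.06 FPKM against 1.65 and 1.44. H2ac7 was at 2.19 and 1.30 FPKM in the controls and 0.804 and 0.283 FPKM in SRC-3KO, and H2ac4 at 1.82 and 1.65 FPKM against 1.28 and 0.766, and these 4 genes did not overlap either. H2ac15, at 2.05 and 1.09 FPKM against 0.823 and 1.09, and H2ac20, at 4.03 and 2.22 FPKM against 2.26 and 1.70, overlapped between groups.

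All 12 tested H2A genes had a negative log2 fold change, with a median of -1.11 against -0.02 over all 12859 genes tested. In 9 of the 12 both SRC-3KO libraries lay below both controls (24.9% of all genes), and 8 had an unadjusted limma p under 0.05 (16.5% of all genes). Both counts include H2ac7 and Hist1h2an, which passed the filter through the controls alone. H2ac18 and H2ac19, a near-identical pair on chromosome 3, could not be read apart: H2ac18 was listed at 0 and 16.1 FPKM in the controls and 0 and 4.65 in SRC-3KO, and H2ac19 at 3.84 FPKM in control 1 and 0 in the rest. Of the whole class of 20, 14 had both SRC-3KO libraries below both controls (16.9% of all genes above 0 in any library) and 1, H2ac21 at under 0.1 FPKM, had both above.

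**Figure D2:**
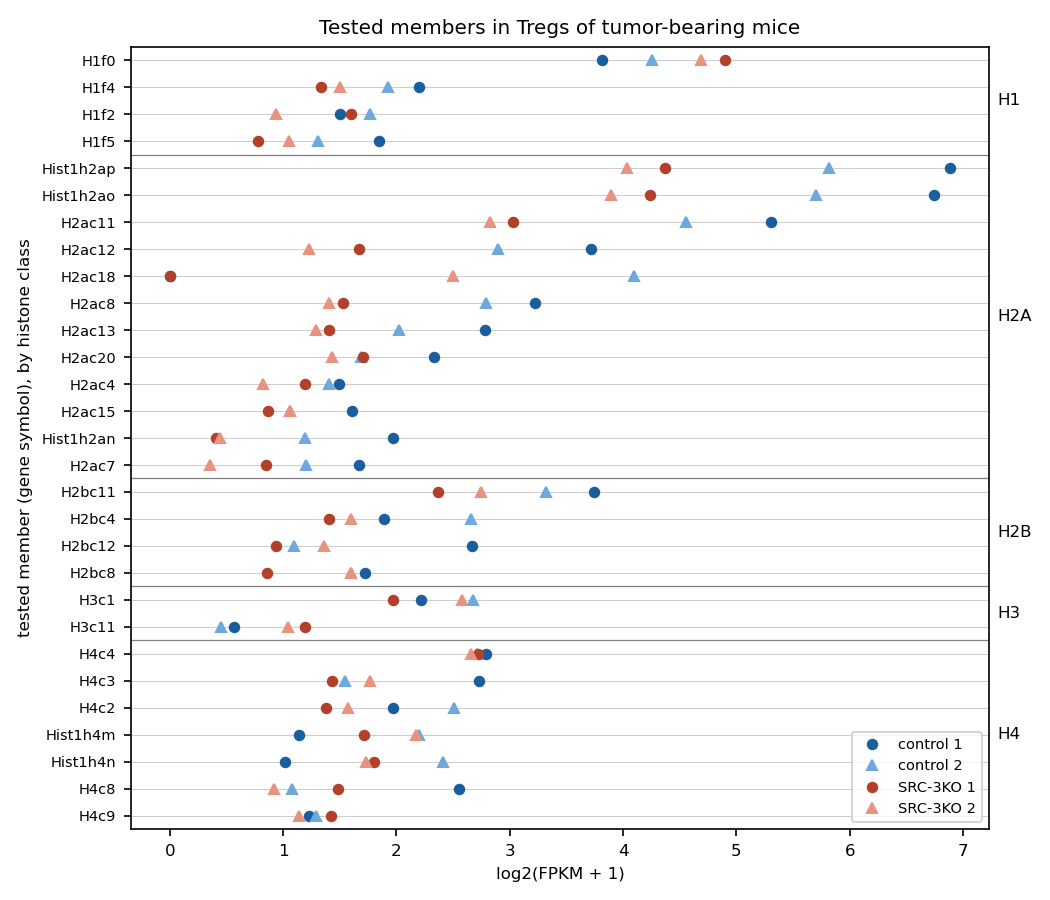
Level of the 29 tested members in tumor-bearing mice as log2(FPKM + 1), 1 row per gene grouped by histone class, with 1 point per library (blue, control; red, SRC-3KO). The upper H2A rows show both red points to the left of both blue points, whereas H1f0 and H3c11 show the reverse and the 4 points of H4c4 lie together.

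Across all classes with a tumor, limma called 0 of the 29 tested members at an adjusted p under 0.05, where it called 0.109% of all genes tested. At an unadjusted p under 0.05 it counted 13 members against 16.5% of all genes, and 11 of these 13 were lower in SRC-3KO, against 6.07% of all genes. In 15 of the 29 members both SRC-3KO libraries lay below both controls (24.9% of all genes) and in 2 both lay above (27.5% of all genes). H2ac7 and Hist1h2an, which passed the filter through the controls alone, are among these 13 and these 15. H3c11, which passed it through the SRC-3KO libraries alone, is among the 13 and the 2. The log2 fold change was below 0 in 24 of the 29 (51.5% of all genes), with a median of -0.65. Among the 70 members above 0 in any library, tested or not, the SRC-3KO libraries were both lower in 34 (16.9% of all such genes) and both higher in 6 (23.6% of all such genes).

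Single libraries decided whether members passed the threshold. Without control 1, limma called 3 members, all lower in SRC-3KO: H2ac11 (log2 fold change -1.63), Hist1h2ao (-1.63) and Hist1h2ap (-1.62), with adjusted p-values of 0.0316 to 0.035, while it called 3.68% of all genes. Without control 2, the library with neutrophil, monocyte and erythroid transcripts, it called 10: the same 3 genes with H2ac8, H2ac12, H2ac13, H2bc11, H2bc12 and H4c3 were lower and H1f0 was higher. That fit called 20.1% of all genes, against 38.5% of the 26 members it tested. Without SRC-3KO 1 the median log2 fold change of the tested members was -0.60, and without SRC-3KO 2 it was -0.73. The medians over all genes in these fits were -0.04 and -0.01. B cell and plasma cell markers also moved with genotype, at a summed 1939 and 2641 FPKM in the controls and 515 and 466 FPKM in SRC-3KO, with 10 or 11 of the 11 above 0 in each library, and their part in the histone values was not tested. CD8 T and NK cell markers summed to 161 and 115 FPKM in the controls and 59.0 and 38.1 FPKM in SRC-3KO, and their part was not tested either. Most of that sum was Nkg7, at 151 and 92.3 FPKM in the controls and 50.4 and 28.1 FPKM in SRC-3KO. Prf1 and Gzma were also lower in both SRC-3KO libraries. Cd8b1 lay the other way, at 4.67 and 6.16 FPKM in the controls and 7.69 and 7.74 FPKM in SRC-3KO. Treg markers were higher in SRC-3KO, at 2881 and 2820 FPKM against 2388 and 1782.

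The H2B genes were far less abundant with a tumor than the H2A genes, summing to 34.3 and 20.8 FPKM in the controls and 10.3 and 14.2 FPKM in SRC-3KO. H2bc11, the partner of H2ac11, was the most abundant: it was at 12.4 and 8.99 FPKM in the controls and 4.17 and 5.72 FPKM in SRC-3KO. The groups did not overlap, with a log2 fold change of -0.97 (SE 0.27) and a limma adjusted p of 0.212. H2bc4 was at 2.70 and 5.31 FPKM in the controls and 1.66 and 2.02 FPKM in SRC-3KO, without overlap, and H2bc8 at 2.31 and 2.04 against 0.818 and 2.03 FPKM, where the lower control and the higher SRC-3KO library were nearly equal. H2bc12 overlapped between groups. All 4 tested H2B genes had a negative log2 fold change, with a median of -0.75.

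There were 14 pairs of an H2A and an H2B gene standing head to head with 175 to 305 bases between their annotated starts. The H2A gene had the higher mean FPKM with a tumor in 11 of the 14. The contrast was wide for the most abundant pairs: Hist1h2ap had a control mean of 86.3 FPKM and its partner Hist1h2br 0.563 FPKM, and Hist1h2ao had 78.5 FPKM and its partner Hist1h2bq 0.459 FPKM. H2ac11 and H2bc11 were closer, with control means of 30.5 and 10.7 FPKM. In the pairs of H2ac6 with H2bc4 and of H2ac14 with H2bc14 the order was the other way, at 0.970 against 4.01 FPKM and 1.04 against 2.94 FPKM. Both SRC-3KO libraries lay below both controls for the H2A gene in 11 pairs and for the H2B gene in 9 (16.9% of all genes above 0 in any library). Log2 fold changes of both partners were available in 3 pairs: -2.004 and -0.97 for H2ac11 and H2bc11, -1.86 and -0.73 for H2ac12 and H2bc12, and -1.54 and -0.43 for H2ac8 and H2bc8. In each of these 3 pairs the H2A gene had the more negative value, a difference that was not tested.

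**Figure D3:**
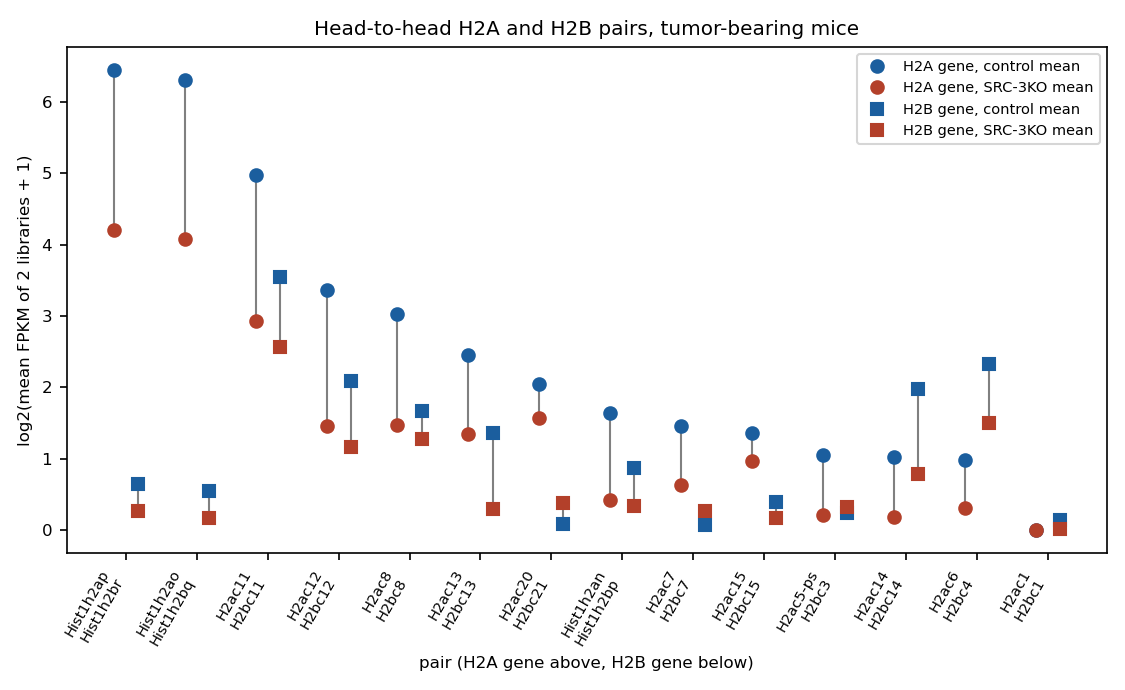
Mean level of the H2A gene (circles) and the H2B gene (squares) of the 14 head-to-head pairs in tumor-bearing mice, as log2(mean FPKM + 1) of 2 control (blue) and 2 SRC-3KO (red) libraries, joined by a line. Hist1h2ap and Hist1h2ao stand far above their H2B partners, whose control means are 0.563 and 0.459 FPKM.

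Among the linker histones, 3 of the 4 tested genes had negative log2 fold changes with a tumor and H1f0 lay the other way. H1f0, which encodes the replication-independent H1.0, was at 13.1 and 18.1 FPKM in the controls and 28.9 and 24.7 FPKM in SRC-3KO with a tumor. Both SRC-3KO libraries were higher, 1.72 times on the means. The log2 fold change was 0.76 (SE 0.23) with a limma adjusted p of 0.234, and without control 2 it was 0.98 with an adjusted p of 0.0316. H1f4 was at 3.60 and 2.80 FPKM in the controls and 1.52 and 1.83 FPKM in SRC-3KO, a log2 fold change of -0.65 without overlap. H1f2 was at 1.84 and 2.40 FPKM in the controls and 2.02 and 0.915 FPKM in SRC-3KO, and overlapped. H1f5 was at 2.59 and 1.47 FPKM against 0.713 and 1.07, without overlap, a log2 fold change of -0.66. H1f1 was at 0 and 0.0843 FPKM in the controls and 0.275 and 0.489 FPKM in SRC-3KO, and H1f3, H1f8 and H1f10 were under 0.4 FPKM in every tumor library.

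The H3 and H4 genes showed smaller gaps with a tumor, at sums of 13.4 and 9.37 FPKM in the controls and 7.80 and 9.01 FPKM in SRC-3KO for H3, and 25.2 and 24.3 FPKM against 18.2 and 19.1 FPKM for H4. H4c4, the most abundant H4 gene, was at 5.92 and 5.57 FPKM in the controls and 5.60 and 5.30 FPKM in SRC-3KO. Its 4 values lay together and overlapped between groups, with a log2 fold change of -0.06 (SE 0.21; 0.15 with a trend on transcript length removed) and a limma adjusted p of 0.892. H4c3 was at 5.63 and 1.92 FPKM in the controls and 1.69 and 2.41 FPKM in SRC-3KO, so that control 1 alone was high. H4c8 was at 4.88 and 1.12 FPKM against 1.80 and 0.897, likewise high in control 1 alone. Hist1h4n was at 1.02 and 4.31 FPKM against 2.49 and 2.31, high in control 2 alone. The median of the 7 tested H4 genes was -0.06, and 0.15 with the length trend removed. Of the 2 tested H3 genes, H3c1 was at 3.64 and 5.39 FPKM in the controls and 2.92 and 4.96 FPKM in SRC-3KO, and overlapped. H3c11 was low throughout, at 0.482 and 0.365 FPKM in the controls and 1.29 and 1.06 FPKM in SRC-3KO. Its groups did not overlap and its log2 fold change was 0.61, with a limma adjusted p of 0.299. H3c11 passed the filter through both SRC-3KO libraries alone, so it had to differ.

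In mice without a tumor the clustered histone genes set control 1 apart from the other 3 libraries. All members summed to 2393 CPM in control 1, 237 CPM in control 2 and 185 and 180 CPM in SRC-3KO. The H1 genes summed to 1217 CPM in control 1, 39.3 CPM in control 2 and 63.8 and 40.6 CPM in SRC-3KO, and the H2A genes to 966, 45.6, 25.5 and 28.4 CPM in the same order. H2B genes lacked that excess, at 44.2 and 59.9 CPM in the controls and 38.0 and 46.5 CPM in SRC-3KO, while H3 genes stood at 92.0, 45.7, 17.0 and 22.9 CPM. Of the 43 tested members, 27 had their highest value in control 1, 14 of them at over 5 times and 8 at over 10 times the highest other library.

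**Figure D4:**
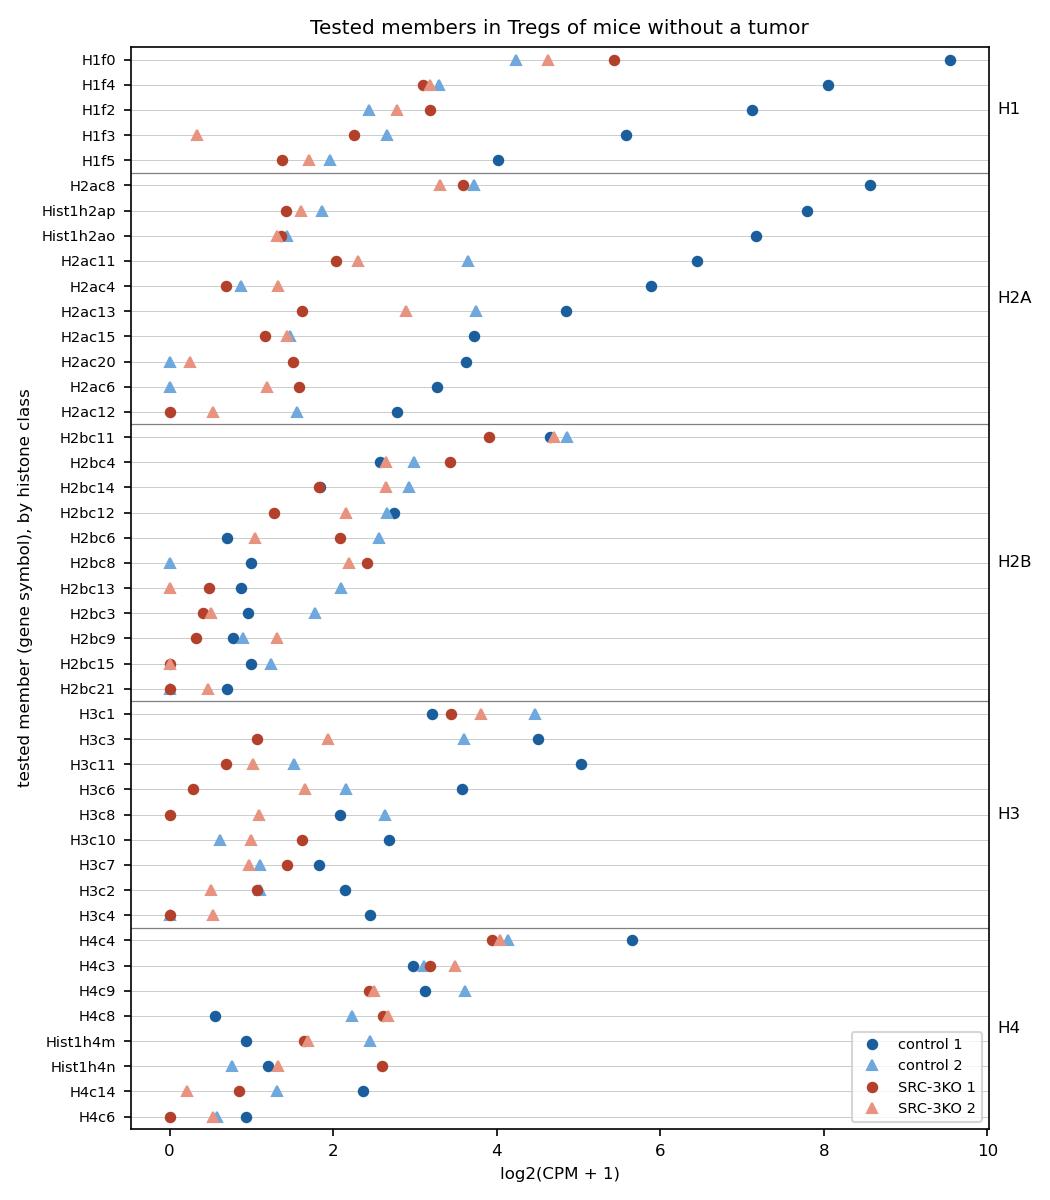
Level of the 43 tested members in mice without a tumor as log2(CPM + 1), 1 row per gene grouped by histone class, with 1 point per library (blue, control; red, SRC-3KO). Control 1 (dark blue circles) stands far to the right for H1f0, H1f4, H2ac8, Hist1h2ap and Hist1h2ao. For the H2B genes, most of them near the low end of the axis, it does not.

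Per kilobase of transcript, H2ac8 had the highest mean over the 4 libraries without a tumor, 146 CPM per kb, which control 1 carried. In the other 3 libraries H2bc11 was the highest, at 60.6, 30.3 and 54.1 CPM per kb against 17.3, 15.6 and 12.6 for H2ac8. H2ac8 was at 378 CPM in control 1, 12.2 CPM in control 2 and 11 and 8.88 CPM in SRC-3KO. Hist1h2ap was at 221 CPM in control 1, 2.65 CPM in control 2 and 1.68 and 2.06 CPM in SRC-3KO. Hist1h2ao was at 143, 1.70, 1.57 and 1.48 CPM in the same order, and for these 3 genes control 2 lay just above the SRC-3KO libraries. The edgeR log2 fold changes were -4.24 (SE 1.64) for H2ac8, -5.83 (SE 2.03) for Hist1h2ap and -5.51 (SE 1.99) for Hist1h2ao, each with an adjusted p of 0.91 in the quasi-likelihood test. Without control 1 they were -0.22, -0.43 and -0.08, so that 1 library carried these values. H2ac11 kept more of its gap: it was at 86.1 and 11.5 CPM in the controls and 3.10 and 3.93 CPM in SRC-3KO, a log2 fold change of -3.72 (SE 1.21), and of -1.64 without control 1, with an edgeR adjusted p of 0.18. H2ac13 was at 27.8 and 12.4 CPM against 2.08 and 6.40, without overlap, a log2 fold change of -2.12, and of -1.46 without control 1. H2ac12 was at 5.86 and 1.95 CPM in the controls, 0 in SRC-3KO 1 and 0.451 CPM in SRC-3KO 2.

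Among the linker histones, H1f0 was at 746 CPM in control 1, 17.9 CPM in control 2 and 42.4 and 23.7 CPM in SRC-3KO. Its log2 fold change was -3.49 (SE 1.69, edgeR adjusted p 0.91) with all 4 libraries and 0.95 without control 1, since control 2 was the lowest of the 4. H1f4 was at 264, 8.78, 7.54 and 8.08 CPM in the same order and H1f2 at 138, 4.43, 8.09 and 5.89 CPM. H1f2 likewise turned, from a log2 fold change of -3.30 to 0.73 without control 1. H1f3 was at 46.7, 5.30, 3.79 and 0.257 CPM, below both controls in both SRC-3KO libraries. The oocyte linker histone H1f8 had reads only in control 1, at 3.25 CPM, and H1f10 was at 3.01 CPM there, 0 in control 2 and 0.109 and 0.161 CPM in SRC-3KO.

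The H2B and H4 genes were mixed without a tumor, whereas all 9 tested H3 genes had a negative log2 fold change. H2bc11 was at 24.1 and 28.1 CPM in the controls and 14.0 and 25.0 CPM in SRC-3KO, which overlap, with a log2 fold change of -0.28. H2bc15 had 25 and 33 reads in the controls, 0.990 and 1.37 CPM, and 0 reads in both SRC-3KO libraries. Against a floor of 3 reads per library it was at least 11.4-fold lower there, but H2bc15 passed the filter through the 2 controls alone, so it had to differ. H2bc13 was at 0.832 and 3.27 CPM in the controls and 0.401 and 0 CPM in SRC-3KO. H2bc8 lay the other way, at 0.990 and 0 CPM in the controls and 4.34 and 3.57 CPM in SRC-3KO, and H2bc4 was at 4.95 and 6.95 CPM against 9.80 and 5.28, which overlap. Both SRC-3KO libraries lay below both controls in 5 of the 9 H3 genes (21% of all genes tested) and above them in 0. H3c11 was at 31.7 and 1.86 CPM in the controls and 0.619 and 1.03 CPM in SRC-3KO. H3c3 was at 21.6 and 11.2 CPM against 1.09 and 2.83, and H3c8 at 3.25 and 5.22 CPM against 0 and 1.13, both without overlap. H3c1 overlapped, at 8.28 and 21.2 CPM against 9.84 and 13. H4c4 was at 49.3 and 16.6 CPM in the controls and 14.4 and 15.5 CPM in SRC-3KO, so that control 1 alone was apart. H4c3, H4c8 and Hist1h4n were each higher in both SRC-3KO libraries: H4c3 was at 6.85 and 7.62 CPM against 8.12 and 10.2, H4c8 at 0.475 and 3.68 CPM against 5.10 and 5.37, and Hist1h4n at 1.31 and 0.704 CPM against 5.06 and 1.51. Their log2 fold changes of 0.47, 1.5 and 1.77 had edgeR adjusted p-values of 0.92, 0.91 and 0.91, and that of H4c3 was -0.29 with a trend on transcript length removed.

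Over the 43 tested members, edgeR's quasi-likelihood test called 0 at an adjusted p under 0.05, as it did over all 14860 genes (0%). At an unadjusted p under 0.05 it counted 8 members, against 3.18% of all genes, all 8 of them lower in SRC-3KO, against 2.29% of all genes. H2bc15, which passed the filter through the controls alone, is among these 8 and among the members without overlap. DESeq2 called 2 members, Hist1h2ao and Hist1h2ap, with adjusted p-values of 0.013 and 0.00536, among 86 of all 14860 genes (0.579%), and limma-voom called 0. In 23 of the 43 both SRC-3KO libraries lay below both controls (21% of all genes) and in 4 both lay above (18.3% of all genes). The log2 fold change was below 0 in 37 of the 43 (50.4% of all genes), with a median of -2.12 against -0.02 over all genes. The class medians were -3.49 for H1, -3.83 for H2A, -0.28 for H2B, -2.45 for H3 and -0.54 for H4. Without control 1 the median of the members was -0.44 with 28 of 43 below 0. Over all genes in that fit it was 0.08, with 7304 of 15919 below 0. Class medians without control 1 were -0.09, -0.21, -0.67, -0.95 and -0.07 in the same order. Without control 2, edgeR called 19 of 53 members (35.8%), 18 lower and H4c8 higher, but it then called 43.8% of all genes, so that count says nothing particular to the members. Among the 62 members with any read, the SRC-3KO libraries were both lower in 24 (13.7% of all such genes) and both higher in 6 (11.9% of all such genes).

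**Figure D5:**
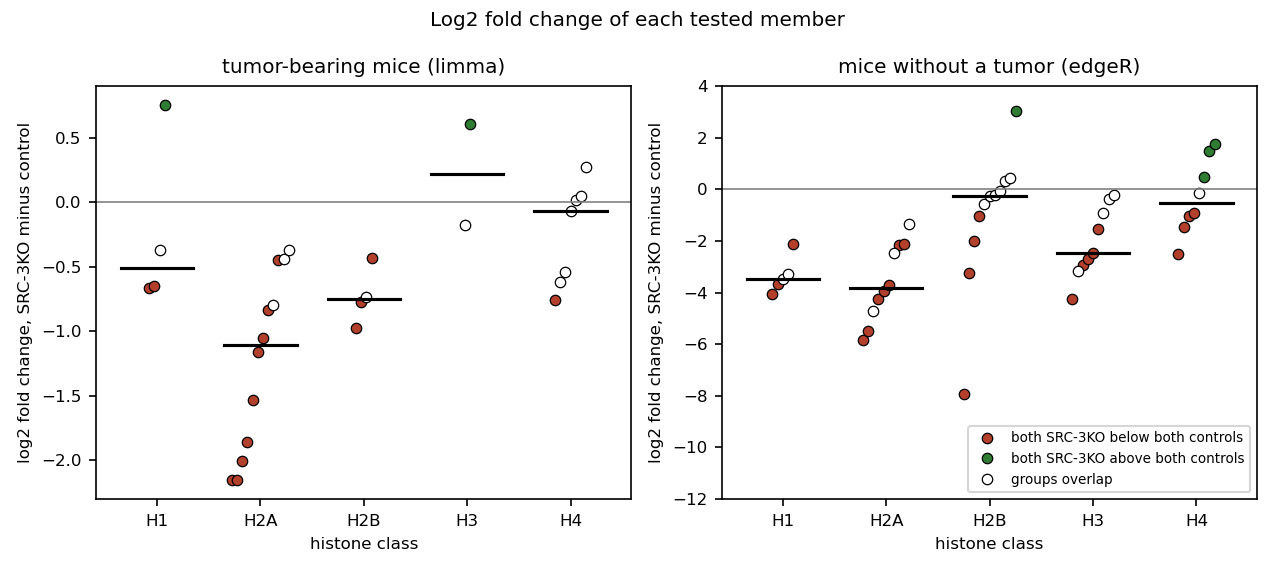
Log2 fold change (SRC-3KO minus control) of each tested member by histone class, with a tumor on the log2(FPKM + 1) scale (left) and without a tumor from counts (right); bars are class medians and colour gives the order of the 2 groups of 2 libraries. All 12 H2A genes on the left are below 0 with a median of -1.11, and the lowest point on the right is H2bc15, whose fitted value is no bound because both SRC-3KO libraries had 0 reads.

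Control 1 without a tumor also differed in the make-up of its markers. B cell and plasma cell markers summed to 172 CPM there, against 1730 CPM in control 2 and 1124 and 604 CPM in SRC-3KO. CD8 T and NK cell markers summed to 1366 CPM there, against 128 CPM in control 2 and 557 and 374 CPM in SRC-3KO. Most of that sum was 1 gene, Nkg7, at 1320 CPM in control 1. Gzma and Cd8a were also highest there, at 2.38 and 1.74 CPM. Cd8b1 lay the other way, at 7.09 CPM there against 18.4 to 24.7 in the other libraries. Neutrophil markers summed to 333 CPM in control 2 and under 0.1 CPM in the other 3 libraries. The part of these differences in the histone values was not tested. The log2 fold changes of the members in the 2 states come from different units and cannot be compared in size.

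The genes that work with histones were read from lists of other S phase genes, replacement histones, histone mRNA factors and chaperones. With a tumor, all 26 tested S phase genes had a negative log2 fold change (51.5% of all genes), with a median of -0.46. In 21 both SRC-3KO libraries lay below both controls (24.9% of all genes). An unadjusted limma p under 0.05 was found for 11 (16.5% of all genes), and 0 passed after adjustment (0.109% of all genes). Rrm2, a subunit of ribonucleotide reductase, was at 49.3 and 38.8 FPKM in the controls and 15.8 and 17.4 FPKM in SRC-3KO, a log2 fold change of -1.35 (limma adjusted p 0.121). Ccna2, the S phase cyclin, was at 9.53 and 9.10 FPKM against 3.90 and 4.15, also without overlap. E2f1, a transcription factor of S phase entry, was at 14.2 and 12.9 FPKM against 7.15 and 6.55. For these 3 genes the controls were closer to each other than for the abundant H2A genes. The proliferation marker Mki67, the list's untested gene, lay the other way at 0.132 and 0.112 FPKM in the controls and 0.428 and 0.482 FPKM in SRC-3KO. Without a tumor the S phase list had a median of -0.45 with 17 of 27 below 0 (50.4% of all genes). The edgeR test called 0, with 4 at an unadjusted p under 0.05 (3.18% of all genes). Control 1 was high here too: Rrm2 was at 2328 CPM there, 147 CPM in control 2 and 89.3 and 113 CPM in SRC-3KO.

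The replacement histones, which are not in the group, had a median log2 fold change of -0.31 over 8 tested genes with a tumor, 6 of them below 0. Of these 8, limma called 0, and 3 had an unadjusted p under 0.05 (16.5% of all genes). H2ax, the variant marked at DNA breaks, was at 38.5 and 30.7 FPKM in the controls and 21.7 and 20.8 FPKM in SRC-3KO, without overlap, a log2 fold change of -0.67. H2aj was at 49.9 and 34.3 FPKM against 25.8 and 22.2, a log2 fold change of -0.77. H2az1, the H2A.Z gene, lay the other way at 393 and 282 FPKM in the controls and 420 and 456 FPKM in SRC-3KO. The median was 0.00 over 8 tested genes without a tumor, where 0 were called and 0 had an unadjusted edgeR p under 0.05.

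Genes of histone mRNA transcription and 3′ end processing were spread around 0 with a tumor: 9 of 20 tested genes were below 0, with a median of 0.05. Of these 20, limma called 0, and 3 had an unadjusted p under 0.05, near the share of 16.5% over all genes. Slbp, the stem-loop binding protein, was at 96.4 and 79.2 FPKM in the controls and 63.0 and 72.6 FPKM in SRC-3KO, a log2 fold change of -0.37 (limma adjusted p 0.413). Lsm10, a subunit of the U7 particle that cuts histone mRNA, was at 37.7 and 25.6 FPKM against 20.4 and 18.2, a log2 fold change of -0.66. Sympk, a scaffold of the cleavage complex, was at 0.662 and 2.27 FPKM in the controls and 9.01 and 12.4 FPKM in SRC-3KO, a log2 fold change of 2.31 (limma adjusted p 0.135). Upf1, the helicase of mRNA decay, was at 10.2 and 13.4 FPKM against 28.2 and 29.5, a log2 fold change of 1.23, and for all but Npat of the genes named here the groups did not overlap. Npat, the coactivator of histone gene transcription, was at 5.62 and 7.57 FPKM against 4.97 and 5.87. Without a tumor, 8 of 21 were below 0 with a median of 0.16, and edgeR called 0 (0 at an unadjusted p under 0.05).

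The histone chaperones had a median of -0.10 over 22 tested genes with a tumor. Of these 22, limma called 0, and 6 had an unadjusted p under 0.05 (16.5% of all genes). Asf1b, a chaperone of H3 and H4 in replication, was at 32 and 22.3 FPKM in the controls and 13.7 and 15.2 FPKM in SRC-3KO, a log2 fold change of -0.85. Supt6, a chaperone of transcription elongation, was at 5.19 and 4.45 FPKM against 15.4 and 14.9, a log2 fold change of 1.47 (limma adjusted p 0.121). Hira and Cabin1 deposit the replacement histone H3.3. Hira was at 0.565 and 0.823 FPKM against 2.36 and 2.18, and Cabin1 at 1.10 and 3.91 FPKM against 8.31 and 7.82. These 4 genes did not overlap between groups. Without a tumor the median was -0.20 over 22 tested genes and edgeR called 0 (0 at an unadjusted p under 0.05).

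Members grouped by their stem-loop showed similar spreads with a tumor. The 14 tested members with a match within 100 bases of the transcript's end had a median log2 fold change of -0.75, the 7 with a match further inside had -0.43, and the 8 without a match had -0.72. Each of these sets spanned values from under -1.5 to above 0 and overlapped the others.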

How the data were processed

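Total RNA of sorted splenic Tregs was sequenced from 8 SMART-Seq v4 libraries, 2 per group. Without a tumor the authors deposited read counts per gene, and with a tumor the authors deposited FPKM values per gene. StringTie is named in the file headers of the latter. Per the submitters' processing notes, FastQC, Trim Galore, STAR, featureCounts, edgeR and build mm10 were used, with no versions. Annotation release, strand setting and the handling of reads that fit several genes: not given in the sources used here. Both tables list 55487 genes, and all 72 members matched GENCODE vM21 by ID.

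The members, the gene lists, the tests and their alternatives were chosen with earlier results of these data known. Counts were fitted with edgeR 4.0.16 in R 4.3.3 (filterByExpr, TMM factors 0.916 to 1.086, quasi-likelihood test, common dispersion 0.791), and CPM are counts scaled to the library total. FPKM values were fitted with limma 3.58.1 and an intensity trend on log2(FPKM + 1). A gene entered if 2 or more libraries reached 1 FPKM. Fits ran over all genes of a table, with Benjamini-Hochberg adjustment over all of them and a threshold of 0.05. Both fits were tested on simulated data. The simulated counts had a dispersion of 0.1, below the 0.791 of these data, so that test cannot show how the edgeR fit performs here. Genes named were, by rule, the 10 most abundant members per table, up to 10 each way with the largest fold change and groups that do not overlap, all H1f genes above 0, and up to 4 per list with the smallest p, of which 1 is not reported here. Members and list genes named beyond it, among them H2bc12, H2ac15, H2ac19, H2ac20, H2ac21, H3c3, H3c8, the pair examples, the stem-loop examples, H2az1, Mki67, Slbp and Npat, were chosen after their values were seen. Alternatives tried were limma-voom, DESeq2 1.42.0, further scalings and filters, a pseudocount of 0.1, removal of a trend with transcript length, the replicate block and leaving out each library, where the lone library of a group is assumed to vary like the other group.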

Additional observations from a re-analysis of the deposited data

Results flagged for a closer look

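H2bc8 lay in opposite directions in the 2 states. Without a tumor both SRC-3KO libraries were above both controls, with an edgeR log2 fold change of 3.04, and with a tumor both were below, with a limma log2 fold change of -0.43 on the log2(FPKM + 1) scale. H3c11 did the reverse, with a log2 fold change of -4.26 without a tumor and 0.61 with one. The difference between states was not tested for either gene, because the states are in tables of different units. H2bc8 had 25 and 0 reads in the controls without a tumor, and H3c11 stayed at or under 1.29 FPKM in every tumor library. H3c11 passed the tumor filter through both SRC-3KO libraries alone, so its direction there was set by the filter. Without a tumor H3c11 was at 31.7 CPM in control 1 and 1.86 CPM in control 2, so control 1 carried most of that gap.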

How the results depend on the processing

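With 2 libraries per group, single libraries decided most calls. Without a tumor, DESeq2 and edgeR with no filter on low counts each called 2 members (0.579% and 0.264% of all genes), and leaving out 1 library gave 0 to 19 calls. The 19, without control 2, were 35.8% of the members against 43.8% of all genes. The median log2 fold change of -2.12 became -1.54 with limma-voom and -3.03 with the length trend removed, and ranged from -2.45 to -0.44 with 1 library left out. The median over all genes, -0.02, became -0.15 with DESeq2 or its size factors, 0.24 with limma-voom, -0.20 with the length trend removed and -0.76 with no filter. With H2bc15 at its bound the median of the members was -2.12 as before. With a tumor, the replicate block called 3 members, H2ac11, Hist1h2ao and Hist1h2ap, against 0 without it, and 72 genes in all against 14. The deviations of control 1 and SRC-3KO 1 from their group means had a correlation of 0.0357. With 2 libraries per group replicate 2 mirrors replicate 1, so this value cannot decide whether same-numbered libraries were paired. Leaving out 1 library gave 0 to 10 calls, where the 10, without control 2, came with 20.1% of all genes. The median of -0.65 became -0.88 with a pseudocount of 0.1, -0.36 with no filter on low values and -0.38 with the length trend removed, and ranged from -0.73 to -0.40 with 1 library left out. No paired analysis was possible without a tumor because the SRC-3KO and control names there share no pair of numbers.

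Of 406 values of named members under these alternatives, 16 changed sign, 358 kept their direction and side of the threshold, and the rest newly passed it. Because no member passed in either main fit, keeping its side was nearly given, and the 358 are no measure of stability. A kept direction can also hide a large shift: H2ac8 without a tumor went from -4.24 to -0.22 without control 1. With 1 library left out and no tumor, values ran from -4.47 to 0.95 for H1f0, -4.28 to 0.73 for H1f2 and -5.71 to 0.45 for H2ac4, the upper end without control 1. They ran from -0.82 to 0.20 for H2bc11 (upper end without SRC-3KO 1) and -0.81 to 0.50 for H3c1 (upper end without control 2, and 0.09 without SRC-3KO 1). With a tumor they ran from -2.85 to 0.45 for H2ac18 and -0.47 to 0.13 for H3c1 (upper ends without SRC-3KO 1, and 0.06 for H3c1 without control 2). They ran from -1.13 to 0.053 for H4c3, -1.35 to 0.12 for H4c8 (upper ends without control 1) and -0.64 to 0.75 for Hist1h4n (lower end without control 1). With the length trend removed, H2bc4 was at -0.0030 and H4c3 at -0.29 without a tumor, and H3c1 at 0.13 and H4c4 at 0.15 with one. The cause was not tested.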
